A study of Mus musculus with 18 samples.

Results

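The genes described here were higher at the end of each of 2 alternative Wnt pulses than in untreated mouse gastruloids, and 99 of the 55385 genes in the count table met that description. A gene was taken when its mean log2(CPM+1), where CPM is its count scaled to a library total of 1000000, was at least 1.5 above the untreated 48 h mean both after an early pulse and after a control pulse, with all 3 libraries of each pulsed group above all 3 untreated libraries. The early condition alone was met by 220 genes, of which the members were 45.0%, and the control condition alone by 476 genes, of which they were 20.8%. The members were thus selected on the values in these 3 groups, which are given as a description with no test.

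Gastruloids are aggregates of mouse embryonic stem cells that form derivatives of the germ layers and a posterior pole in culture. RNA with a poly(A) tail was sequenced from 18 libraries in 6 groups of 3, all wild type (WT) and of strain 129/SVEV, and each group is named here by its treatment and its age after aggregation. The untreated 48 h gastruloids had not received CHIR, a GSK3 inhibitor that activates Wnt/β-catenin signalling. The early arm received CHIR between 24 h and 48 h and was collected at 48 h, 72 h and 96 h, and the control arm received it between 48 h and 72 h and was collected at 72 h and 96 h. The gastruloids of a condition were pooled before extraction. Since no untreated group older than 48 h was used here, the control pulse and 24 h of further culture cannot be told apart in the control 72 h libraries. Whether the replicates are separate cultures is not stated in the labels, and the p-values below therefore rest on the spread between libraries, which may be technical.

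GSK3 marks β-catenin for destruction, and its inhibition lets β-catenin reach the nucleus and act with TCF/LEF factors on target genes. Some targets code for inhibitors that feed back on the pathway, and others, such as T (Brachyury) and the Cdx genes, code for transcription factors of the primitive streak and the tail end of the embryo. In the mouse embryo Wnt3 and Nodal act together to set up the streak, where pluripotent epiblast cells become mesoderm and endoderm.

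The library totals lay between 14841728 and 24536538 counts, and all 99 members passed the filter on low counts that left 16041 genes in the tests. Of the 7 markers that check the tissue, Pou5f1 averaged from 359.8 to 1381 CPM over the groups and Cdh1 from 334.1 to 1005 CPM. Sox2 averaged from 41.1 to 209.2 CPM and Epcam from 82.7 to 250.5 CPM. Tbx6 averaged 205.8 CPM at control 96 h and no more than 1.63 CPM in the other groups, and T and Cdx2 are themselves members. The control libraries numbered 3 were the highest or lowest of their group at many members, and so were some other libraries. Untreated replicate 3 was above both others at 61 members. Control 72 h replicate 3 was above both at 53 and below both at 33, and control 96 h replicate 3 below both at 58. Early 48 h replicate 2 was below both at 56, early 96 h replicate 1 above both at 50 and early 96 h replicate 3 below both at 51. The shares over all genes were not counted. Without the 3 control libraries numbered 3 the rule found 101 genes, 97 of them among the 99.

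RefSeq promoter windows of GRCm38.p6, from 250 bases before to 50 bases after an annotated start, were matched by symbol to 69 of the 99 members. The 4 windows shown are here because they belong to members in the lists of Wnt targets, streak factors and caudal factors and hold the TCF/LEF core motif CTTTGA, which reads TCAAAG on the other strand. Each is written 5′ to 3′ along its gene with the motif in capitals.
T, chr17:8434173-8434472, plus strand: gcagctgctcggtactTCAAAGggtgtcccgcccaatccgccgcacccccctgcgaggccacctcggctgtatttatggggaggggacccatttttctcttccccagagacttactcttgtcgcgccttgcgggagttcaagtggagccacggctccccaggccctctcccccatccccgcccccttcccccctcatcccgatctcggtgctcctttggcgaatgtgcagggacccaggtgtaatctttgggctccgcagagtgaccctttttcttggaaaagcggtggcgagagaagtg
Tnfrsf19, chr14:61037938-61038237, minus strand: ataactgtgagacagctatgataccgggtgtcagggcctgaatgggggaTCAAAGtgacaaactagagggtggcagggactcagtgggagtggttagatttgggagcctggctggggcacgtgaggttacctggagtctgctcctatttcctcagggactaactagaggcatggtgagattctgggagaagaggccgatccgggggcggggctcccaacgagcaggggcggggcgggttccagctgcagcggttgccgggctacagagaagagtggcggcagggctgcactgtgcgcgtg
Sp5, chr2:70474673-70474972, plus strand: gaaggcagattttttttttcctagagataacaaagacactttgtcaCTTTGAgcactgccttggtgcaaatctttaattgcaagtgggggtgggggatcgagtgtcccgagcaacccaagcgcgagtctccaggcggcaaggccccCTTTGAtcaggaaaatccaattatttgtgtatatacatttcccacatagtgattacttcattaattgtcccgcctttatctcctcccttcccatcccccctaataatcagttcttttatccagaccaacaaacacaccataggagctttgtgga
Sp8, chr12:118846983-118847282, plus strand: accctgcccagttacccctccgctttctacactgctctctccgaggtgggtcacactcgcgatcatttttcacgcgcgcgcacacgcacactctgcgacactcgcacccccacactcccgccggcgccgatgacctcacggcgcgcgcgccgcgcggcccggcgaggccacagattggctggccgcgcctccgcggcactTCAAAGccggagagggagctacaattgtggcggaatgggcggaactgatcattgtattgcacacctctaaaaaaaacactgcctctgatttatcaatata

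The Sp5 window holds the motif at 2 places, with first bases at -204 and -104 from the start site, and the windows shown for T, Tnfrsf19 and Sp8 hold it once, at -234, -201 and -50. Tnfrsf19 has 2 windows in the table and Sp8 has 3, of which only the 1 shown holds the motif in each case. Over all 99 windows of the 69 members, counting either strand, 16.2% held CTTTGA, against 16.0% of all 32851 mouse windows and 12.0% of the windows of tested genes. The T-box half-site core TCACAC was in 13.1% of the members' windows and in 14.5% of all windows, with 11.1% in the windows of tested genes. The GC box GGGCGG was in 57.6% of the members' windows and 35.7% of all windows, with 61.5% in those of tested genes. With 1 window per gene, the members' shares were 14.5% for CTTTGA, 10.1% for TCACAC and 58.0% for the GC box. The shares of all windows were then 16.2%, 14.4% and 35.9%, and those of tested genes 12.0%, 10.7% and 64.5%. No motif contains another. These shares are descriptions of letters in short windows.

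The early difference had a median of 2.37 on the log2(CPM+1) scale over the members, from 1.52 to 5.27, and the control difference a median of 2.83, from 1.52 to 9.42. The control difference was the larger at 71 members and the early difference at 28. Ntn1, which codes for the guidance cue netrin, had the largest smaller-of-2 difference, and the differences after the 2 pulses were close in size. It stood at 0.875, 1.36 and 1.5 CPM in the untreated libraries, at 89.0, 76.6 and 90.0 CPM at early 48 h and at 69.4, 80.1 and 102.5 CPM at control 72 h. T stood at 0.681, 0.282 and 0.749 CPM untreated, at 37.1, 34.9 and 42.8 CPM at early 48 h and at 1039, 1287 and 904.5 CPM at control 72 h, so that its early level was 3.55% of its control level. The 10 members with the largest smaller difference were, in falling order, Ntn1, Wnt8a, T, Nt5e, Nkx1-2, Tnfrsf19, Hoxb1, Porcn, Rtl8c and Ephx2. Their smaller differences went from 5.23 in Ntn1 to 3.45 in Ephx2.

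**Figure D1:**
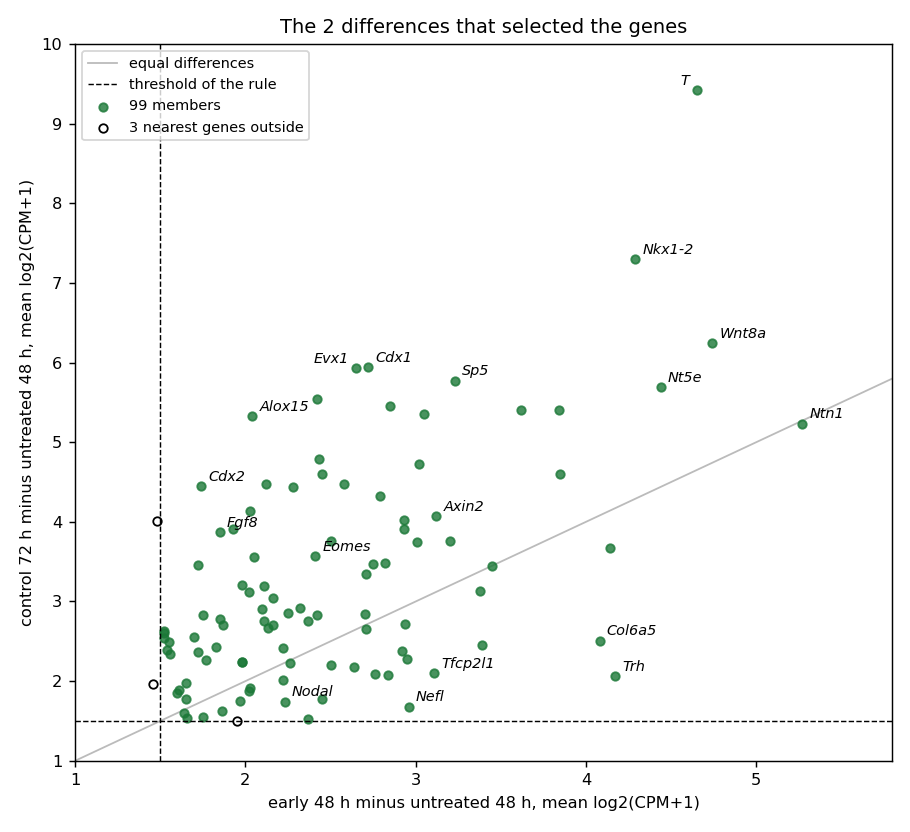
Each green point is 1 of the 99 members, placed by its difference between early 48 h and untreated 48 h (x) and between control 72 h and untreated 48 h (y), both in mean log2(CPM+1), with the rule's threshold of 1.5 dashed and equal differences in grey. Most points lie above the grey line, T is highest at 9.42, and Trh and Col6a5 lie well below it.

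The threshold cut through a continuous range. Chrna9 (1.516), Fam53b (1.517) and 4930461G14Rik (1.521) had the lowest smaller-of-2 differences among the members. Epb41l1 (1.495), Pcdhgc3 (1.482) and Rai14 (1.458) were the nearest genes outside. Pcdhgc3, a protocadherin, averaged 4.38 CPM untreated, 13.9 CPM at early 48 h and 85.5 CPM at control 72 h, so it was left out through its early difference alone.

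The ends of the pulses differed in which members were most abundant. Per length, in the authors' FPKM, Trh, the precursor of thyrotropin-releasing hormone, was the highest member at early 48 h with a mean of 500.1 FPKM, ahead of Cdkn1a with 106.3, Lefty1 with 91.9 and Slc29a1 with 89.5. At control 72 h T was the highest with 336.4 FPKM, ahead of Cdkn1a with 199.8, Fst with 132.2 and Grsf1 with 130.5, and Trh was at 119.2 FPKM. The libraries of control 72 h lay wholly above those of early 48 h at 65 members and wholly below at 16, where 43.6% and 23.9% of all tested genes did so. Both groups belong to the rule, so nothing is read from these counts. T, Alox15, Evx1, Cdx1 and Foxb1 were the members most in favour of control 72 h. Trh, Col6a5, Nefl, Tfcp2l1 and Cnpy1 were most in favour of early 48 h. Trh measured 867.1, 885.2 and 929.8 CPM at early 48 h against 194.0, 173.8 and 261.2 CPM at control 72 h. Tfcp2l1, a transcription factor of naive pluripotency, measured 69.6, 69.8 and 71.0 CPM against 33.4, 37.6 and 31.6 CPM.

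**Figure D2:**
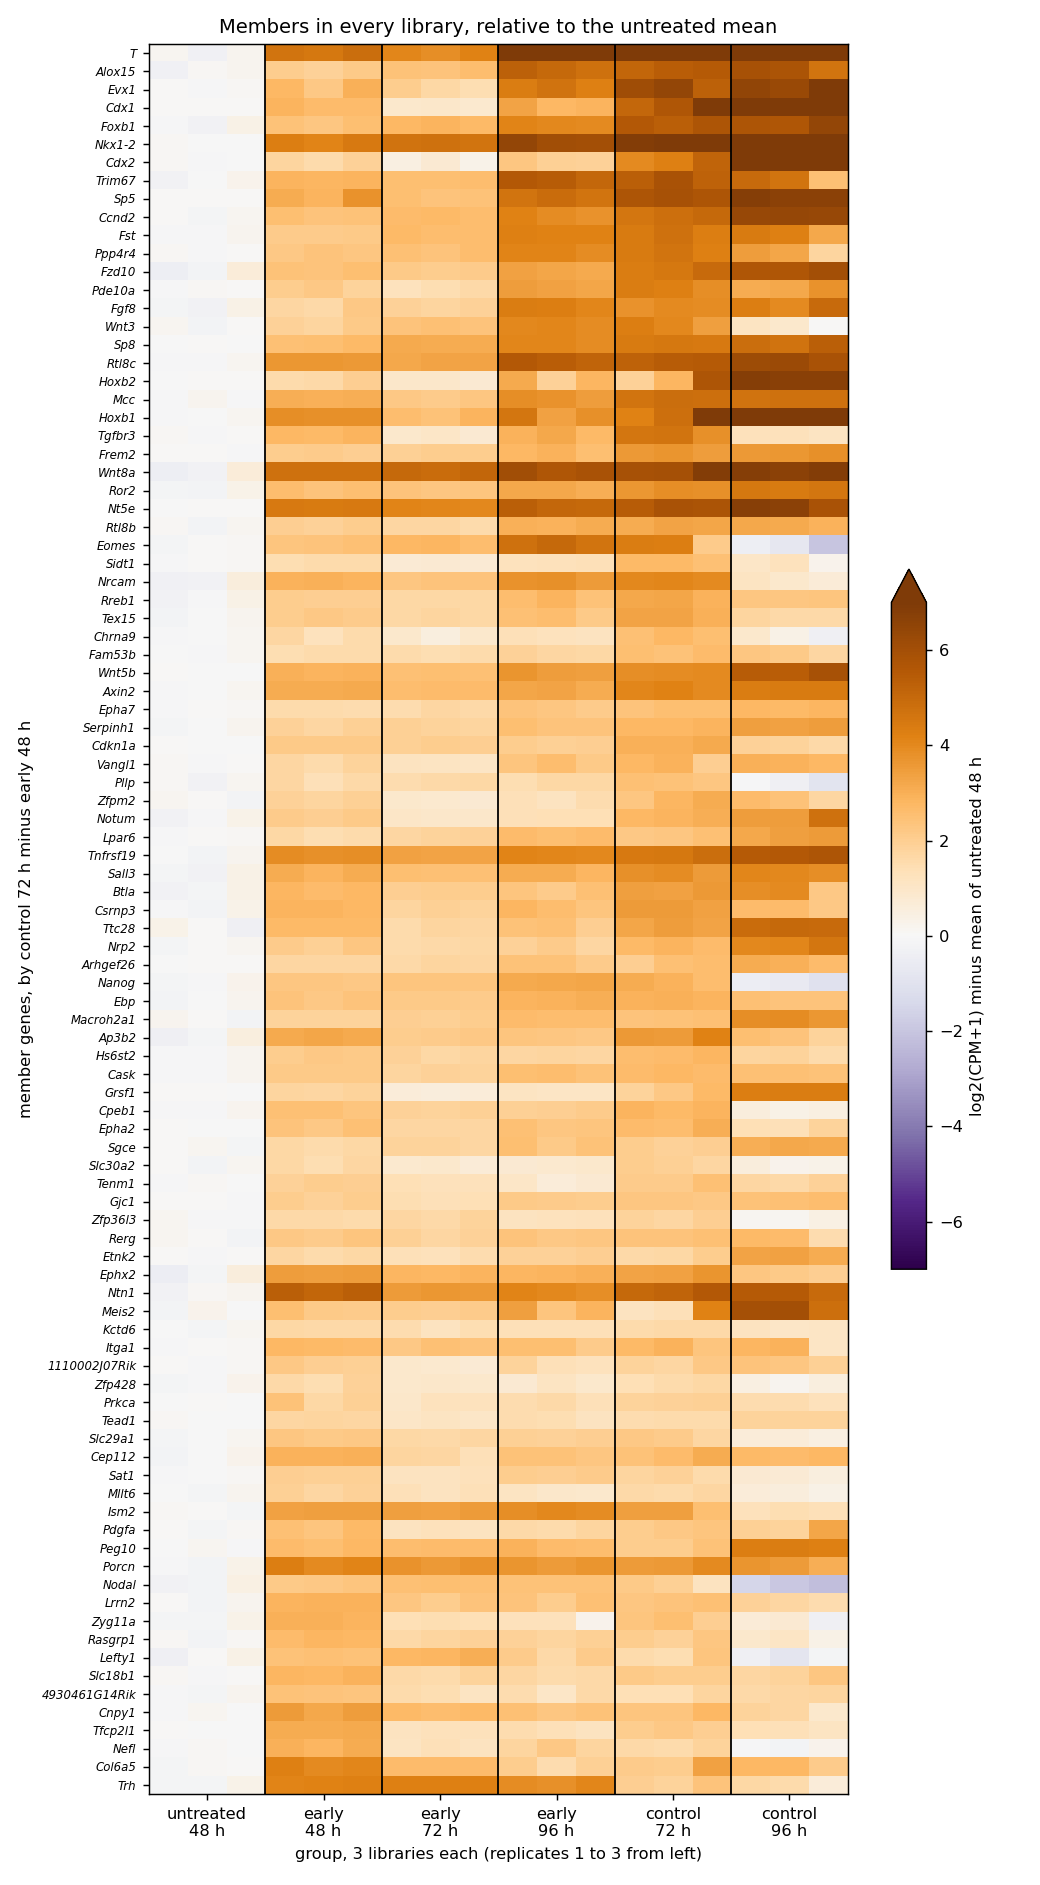
Rows are 96 of the members, ordered by control 72 h minus early 48 h, columns are the 18 libraries by group, and the colour gives log2(CPM+1) minus the mean of untreated 48 h, with values above 7 drawn at 7. T is at the top and Trh at the bottom, and the control 96 h block runs from the darkest values of the plot (Cdx1, Cdx2, Nkx1-2) to values under the untreated mean (Eomes, Nodal, Lefty1).

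The level of each member 24 h after its pulse is described here as a percent of its level at the end of that pulse. At early 72 h, 24 h after CHIR had been removed, the members stood at a median of 69.8% of their early 48 h mean CPM, the lowest being 15.3% in Cdx1, with 25 members under 50% and 26 above 100%. At control 96 h, also 24 h after the pulse, the median was 92.2% of control 72 h, but the range was from 2.68% in Eomes to 1146% in Cdx2, with 30 members under 50% and 45 above 100%. The early 72 h libraries lay wholly below those of early 48 h at 68 members (21.3% of all tested genes) and wholly above at 18 (38.0%). The control 96 h libraries lay wholly below those of control 72 h at 44 members (28.1%) and wholly above at 30 (28.0%). The early 48 h and control 72 h libraries had been selected for being high, which by itself favours a lower level afterwards, so nothing is read from these counts.

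At every member the 3 early 72 h libraries lay above the 3 untreated ones, as they did at 35.3% of all tested genes, and so did the early 96 h libraries at 98 of 99 members (41.3%) and the control 96 h libraries at 88 of 99 (42.4%). The untreated libraries were part of the rule and were low in every member by construction, so these counts too are descriptions. Of the group means, the highest was at control 96 h for 43 members, at control 72 h for 28, at early 48 h for 18, at early 96 h for 7 and at early 72 h for 3.

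**Figure D3:**
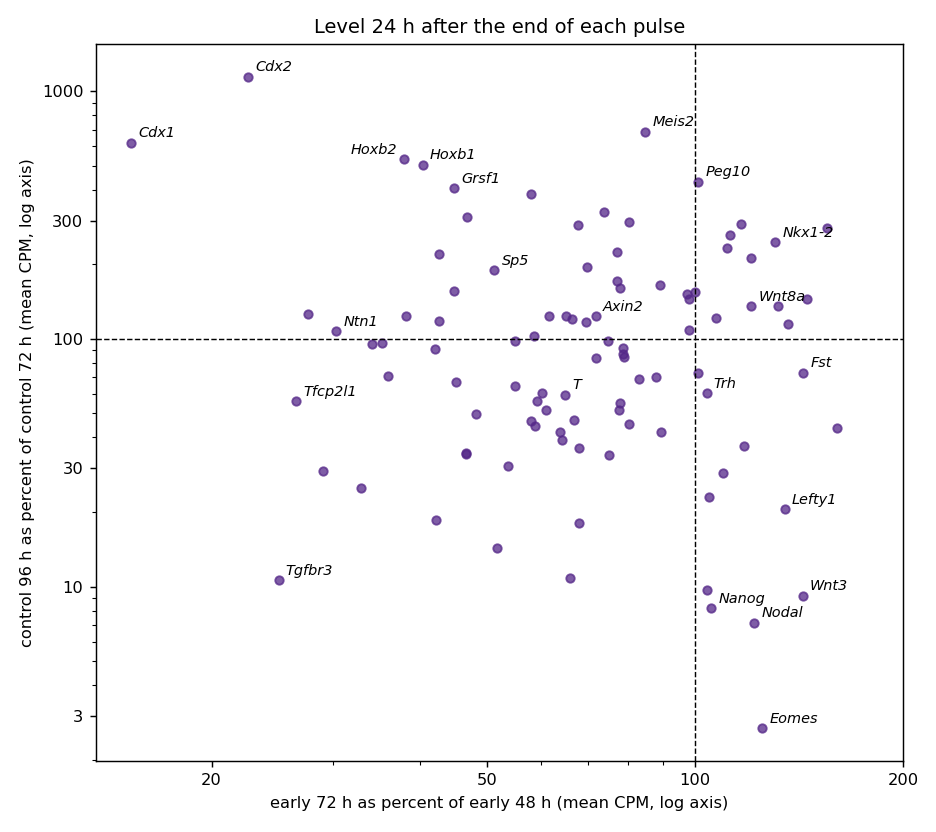
Each point is a member, placed by its mean CPM at early 72 h as a percent of early 48 h (x) and at control 96 h as a percent of control 72 h (y), both on log axes, with 100% dashed. Cdx1 and Cdx2 are at the top left, low in the early arm and high in the control arm, and Eomes, Nodal, Nanog and Wnt3 are at the bottom right.

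The pair of tests that follow used groups outside the rule. The first compared early 96 h with early 72 h, that is, 48 h with 24 h after the early pulse and with no further CHIR. Of the 99 members, 59 were higher at early 96 h and 5 lower at an adjusted p under 0.05, where 17.6% of the 16041 tested genes were called higher and 17.6% lower. The members' log2 fold changes had a median of 0.61, and those of all tested genes a median of 0.01. Without the 3 control libraries numbered 3, which belong to neither compared group, 71 members were higher and 9 lower. The filter, the scaling and the shared estimate of spread were all redone in that fit, and the cause was not tested. When the change had to exceed 2-fold, 11 members were higher, namely T, Evx1, Alox15, Pde10a, Fgf8, Tgfbr3, Trim67, Rtl8c, Rtl8b, Mcc and Sp5.

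The second test compared early 96 h with control 96 h, at the same age but 48 h and 24 h after their pulses. Here 32 members were higher in the early arm and 50 lower, where 29.5% and 29.6% of the tested genes were called. The median log2 fold change was -0.36 over the members and -0.01 over all tested genes. The share of members called higher was thus near the background and the share called lower above it. Both tests share the early 96 h libraries, so their calls are not independent of each other.

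Markers of other cell types were measured in the groups of both tests. The 10 fibroblast and feeder markers summed to between 13.3 and 15.0 CPM at early 72 h, between 16.1 and 18.8 CPM at early 96 h and between 45.4 and 75.0 CPM at control 96 h, with Lum and S100a4 at 0 in every group and Col1a1 at no more than 0.834 CPM in any group mean. Within that list the control 96 h mean was above the early 96 h mean at Pdgfrb (28.8 and 4.25 CPM), Col1a2 (24.8 and 3.27 CPM) and Acta2 (4.05 and 0.309 CPM). It was below the early 96 h mean at Thy1 (5.49 and 8.54 CPM) and Dcn (0 and 0.342 CPM). The 10 extraembryonic endoderm markers summed to 68.9 to 82.9, 86.0 to 91.3 and 57.3 to 158.6 CPM in the same groups, with Afp at no more than 0.136 CPM. Pdgfra averaged 78.7 CPM at control 96 h and 3.39 CPM at early 96 h. Cubn and Dab2 went the other way: at early 72 h, early 96 h and control 96 h Cubn averaged 41.0, 38.7 and 19.3 CPM. Dab2 averaged 23.2, 31.8 and 13.8 CPM in that order. The 7 trophoblast markers summed to at most 18.7 CPM and the 7 two-cell-like markers to at most 9.01 CPM in any library. In bulk RNA fewer cells of a type and less RNA per cell cannot be told apart, and the part of cell composition in the results below was not tested.

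Of 85 genes in 4 lists of Wnt ligands, receptors, transduction factors and targets, 79 were tested and 12 were members. Of these 12, 11 were higher at early 96 h than at early 72 h, all but Notum, while against control 96 h 1 was higher and 11 lower. Of the 67 other tested genes of those lists, 24 were higher and 9 lower in the first test, and 16 were higher and 30 lower in the second. None of the 21 genes for transduction and TCF/LEF factors was a member: Lef1, the TCF/LEF factor with the lowest p of the second test, averaged 108.7 CPM untreated, 128.6 CPM at early 48 h and 155.2 CPM at control 72 h.

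The Wnt ligands Wnt3, Wnt5b and Wnt8a were members, and all 3 were higher at early 96 h than at early 72 h, as were 4 of the 12 other tested ligands. Wnt3, which starts the streak in the embryo, stood at 2.77, 1.98 and 2.43 CPM untreated, at 11.3, 10.6 and 14.0 CPM at early 48 h and at 64.7, 54.3 and 34.8 CPM at control 72 h. It then measured 16.9, 18.1 and 16.5 CPM at early 72 h and 53.7, 56.1 and 49.3 CPM at early 96 h, against 6.42, 5.32 and 2.40 CPM at control 96 h. Its 3 early 96 h libraries were thus above all of control 96 h, where the mean of 4.71 CPM stood against 2.39 CPM untreated. Wnt11, a ligand outside the set, took a like course at lower levels, with means of 0.170 CPM untreated, 5.99 CPM at early 96 h and 0.613 CPM at control 96 h. The log2 fold change of Wnt3 was 1.58 ± 0.20 (SE, adjusted p = 1.24e-05) against early 72 h and 3.43 ± 0.24 (adjusted p = 7.91e-10) against control 96 h.

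Wnt8a (chr18:34542313-34548273), a streak ligand, stood at 1.31, 1.65 and 3.87 CPM untreated, at 81.0, 81.5 and 82.6 CPM at early 48 h and at 184.5, 187.5 and 365.1 CPM at control 72 h. At early 96 h it measured 205.9, 156.8 and 172.8 CPM, higher than the 98.1, 92.4 and 105.5 CPM of early 72 h (0.81 ± 0.19, adjusted p = 0.00342) and lower than the 341.0, 304.7 and 355.0 CPM of control 96 h (-0.91 ± 0.19, adjusted p = 4.25e-04). Wnt5b, a ligand mostly tied to signalling without β-catenin, averaged 15.6 CPM at early 72 h, 32.1 CPM at early 96 h and 137.7 CPM at control 96 h, and its second log2 fold change was -2.11 ± 0.09 (adjusted p = 2.60e-12). Wnt5b overlaps Fbxl14, a gene on the other strand with a mean of 129.2 CPM over the ends of the pulses, and the strand setting of the counting is not given in the sources used here. Of the ligands outside the set, Wnt3a averaged 0.148 CPM at early 48 h, 8.93 CPM at control 72 h and 139.8 CPM at control 96 h.

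Porcn, the acyltransferase that Wnt proteins need for secretion, was high at the end of both pulses and in all later groups. It stood at 1.36, 1.13 and 2.00 CPM untreated and at 48.0, 37.8 and 42.8 CPM at early 48 h, and then between 25.8 and 30.8 CPM in the means of the other 4 groups. Neither test called it (-0.09 ± 0.14 with adjusted p = 0.658, and 0.19 ± 0.15 with adjusted p = 0.287). Ebp, a sterol isomerase gene that lies 335 bases from Porcn on chromosome X, on the same strand, was also a member, with means of 5.64 CPM untreated, 31.9 CPM at early 48 h and 48.9 CPM at control 72 h.

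The Wnt receptors Fzd10 and Ror2 were members. Fzd10, a Frizzled, stood at 30.6, 28.1 and 29.2 CPM at early 72 h, at 71.6, 66.5 and 62.7 CPM at early 96 h and at 365.8, 363.0 and 446.2 CPM at control 96 h, with no overlap between the 3 groups. Its log2 fold change was 1.15 ± 0.16 (adjusted p = 2.22e-05) in the first test and -2.56 ± 0.15 (adjusted p = 7.80e-11) in the second. Ror2, a receptor tyrosine kinase for Wnt5a, took the same order, with means of 39.2, 70.5 and 177.8 CPM and fold changes of 0.80 ± 0.08 and -1.35 ± 0.08 on the log2 scale (adjusted p = 1.51e-06 and 1.36e-10). Vangl1, a planar polarity protein outside the lists, was 1.29 ± 0.18 higher in the first test (adjusted p = 2.49e-05).

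From the list of Wnt feedback and target genes 7 were members: Axin2, Sp5, Sp8, Notum, Tnfrsf19, Ccnd2 and Cdx1. Of these 6 were higher at early 96 h than at early 72 h, with Notum not called, and all 7 were lower at early 96 h than at control 96 h. Of the 20 other tested genes of the list, 9 were higher and 1 lower in the first test, and 4 were higher and 9 lower in the second.

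Axin2, the feedback scaffold of the β-catenin destruction complex, stood at 11.5, 11.7 and 13.4 CPM untreated, at 112.6, 109.2 and 117.6 CPM at early 48 h and at 221.4, 237.9 and 203.3 CPM at control 72 h. It measured 79.8, 82.1 and 82.0 CPM at early 72 h, 126.6, 128.1 and 112.1 CPM at early 96 h, and 266.3, 272.6 and 280.5 CPM at control 96 h. Its level thus lay well above untreated in each later group and in the early arm was higher 48 h than 24 h after CHIR (0.54 ± 0.06, adjusted p = 2.81e-06). Against control 96 h the log2 fold change was -1.17 ± 0.06 (adjusted p = 1.43e-11).

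Sp5 and Cdx1 had no count in any untreated library. With the untreated group set to a floor of 3 counts over the group, Sp5 was at least 167.5-fold higher at early 48 h and at least 1037-fold higher at control 72 h, and Cdx1 at least 108.8-fold and 1322-fold. Sp5, a zinc-finger factor and Wnt target whose promoter is shown above, measured 4.79, 4.24 and 4.37 CPM at early 72 h and 24.0, 28.6 and 23.5 CPM at early 96 h (2.46 ± 0.17, adjusted p = 5.81e-08), against 109.1, 97.6 and 97.6 CPM at control 96 h (-2.01 ± 0.14, adjusted p = 2.83e-09). Sp8, its relative, showed smaller differences, 0.90 ± 0.11 and -0.99 ± 0.11 (adjusted p = 1.00e-05 and 3.04e-07). Notum, the enzyme that removes the lipid from Wnt proteins, averaged 7.50 CPM at early 72 h, 10.1 CPM at early 96 h and 69.0 CPM at control 96 h, where its libraries read 47.2, 46.1 and 113.7 CPM. Tnfrsf19, a receptor of the TNF family, and Ccnd2, the gene of cyclin D2, were lower at early 96 h than at control 96 h, with log2 fold changes of -1.52 ± 0.08 and -2.42 ± 0.10 (adjusted p = 1.70e-11 and 5.93e-13).

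Of 17 tested primitive streak factors 6 were members, T, Eomes, Evx1, Fgf8, Wnt3 and Nodal, and 5 of these were higher at early 96 h than at early 72 h, all but Nodal. Of the 11 other tested genes of that list, 6 were higher and 1 lower in the same test, and 4 were higher and 5 lower in the second. T had the largest rise of all members in that test. It measured 25.6, 21.9 and 27.0 CPM at early 72 h and 670.7, 558.6 and 493.1 CPM at early 96 h, a log2 fold change of 4.49 ± 0.18 (adjusted p = 2.81e-11). Control 96 h read 766.2, 666.6 and 491.4 CPM, so that the groups overlapped and the difference at 96 h was not called (-0.18 ± 0.15, adjusted p = 0.318). Without control 96 h replicate 3 that difference was -0.33 (adjusted p = 0.0228).

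Fgf8, a growth factor of the streak and tailbud, and Evx1, a homeobox factor of the posterior streak, rose as well. Fgf8 measured 11.3, 10.4 and 11.6 CPM at early 72 h, 67.8, 66.0 and 55.6 CPM at early 96 h and 64.7, 51.9 and 105.6 CPM at control 96 h. Its log2 fold change was 2.47 ± 0.21 (adjusted p = 1.67e-07) in the first test and -0.23 ± 0.18 (adjusted p = 0.285) in the second, and without control 96 h replicate 2 the latter was -0.42 (adjusted p = 0.0416). Evx1 rose by 3.01 ± 0.34 (adjusted p = 2.87e-06) but stayed under control 96 h, with means of 23.6 and 112.9 CPM (-2.26 ± 0.25, adjusted p = 3.59e-07). Evx1os, an antisense gene that overlaps Evx1, averaged 15.4 CPM over the ends of the pulses.

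Eomes, a T-box factor of the streak and of definitive endoderm, had the largest positive difference at 96 h. It stood at 43.2, 44.4 and 38.7 CPM at early 72 h, at 172.7, 208.5 and 158.9 CPM at early 96 h and at 3.96, 2.94 and 0.647 CPM at control 96 h. The log2 fold changes were 2.05 ± 0.35 (adjusted p = 1.98e-04) and 6.04 ± 0.48 (adjusted p = 5.95e-09). At control 72 h, one of the selecting groups, its libraries read 129.2, 124.8 and 27.2 CPM, the low value being replicate 3. Eomes and Cdx2 also mark trophoblast, whose other markers are given above.

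**Figure D4:**
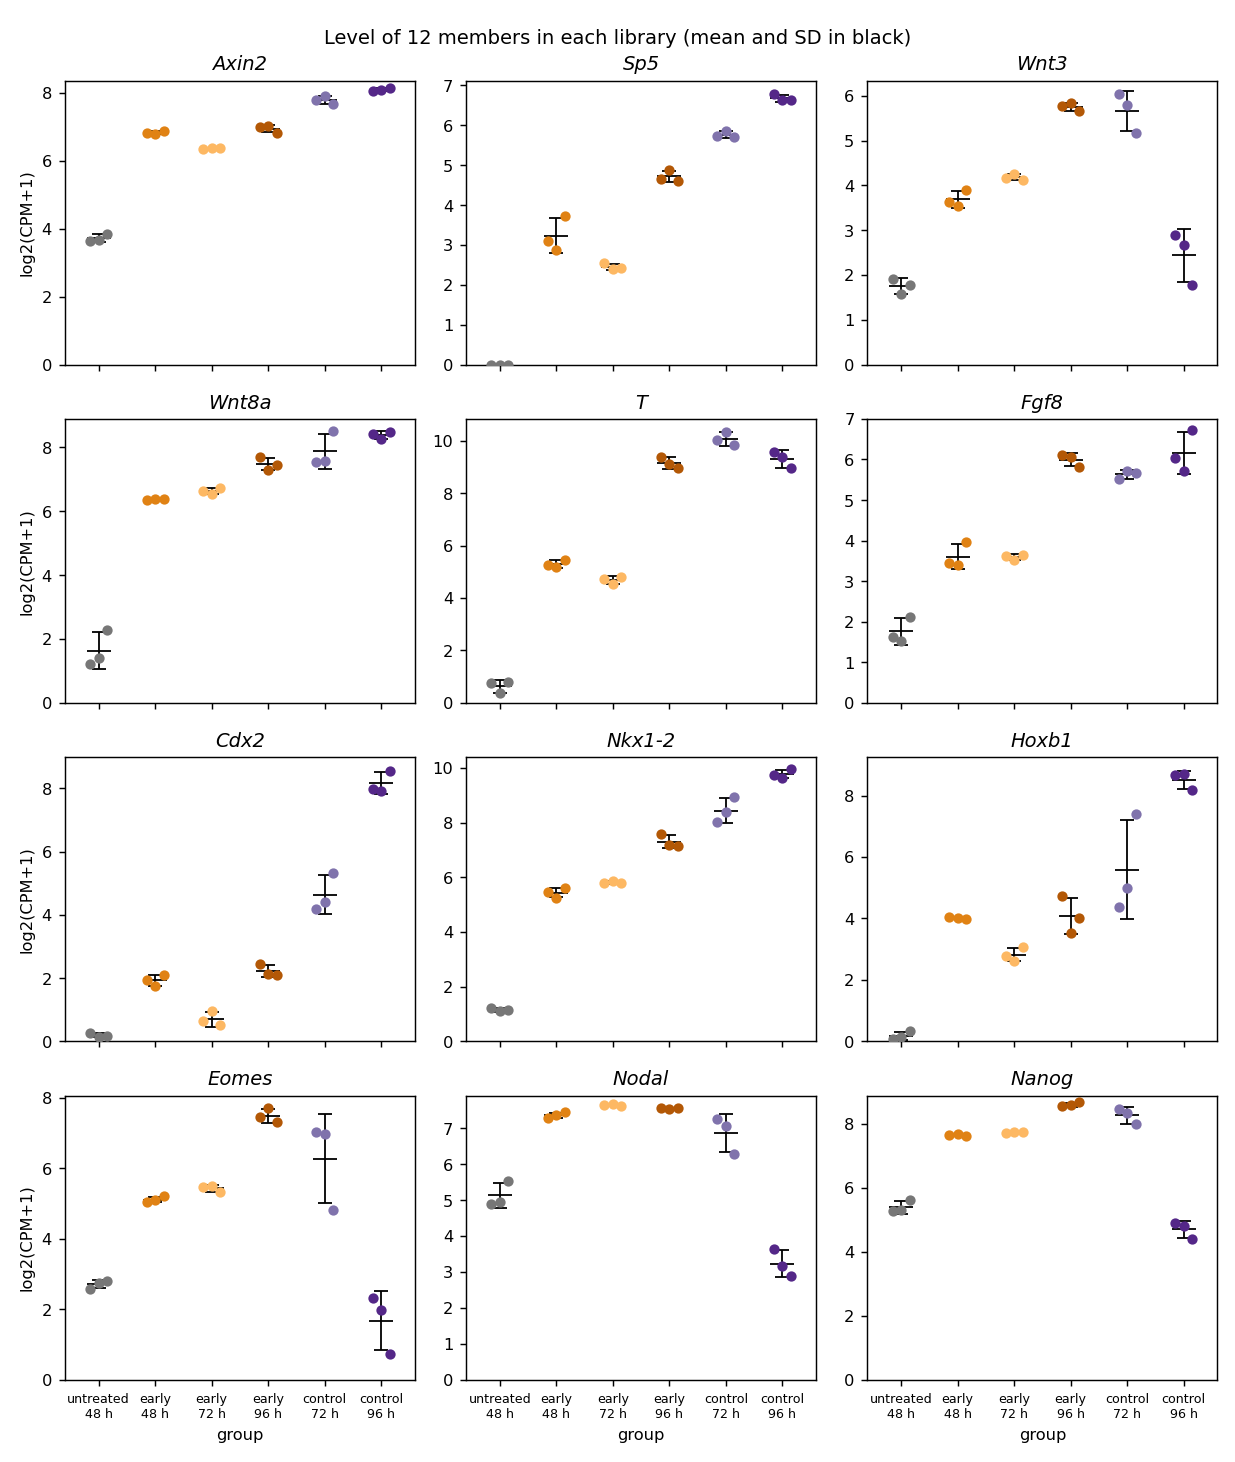
Each panel shows 1 member, with points for the 3 libraries of each group in log2(CPM+1) and the mean and SD of those values in black. At T and Fgf8 the early 96 h and control 96 h points overlap, Cdx2, Nkx1-2 and Hoxb1 are highest at control 96 h, and Eomes, Nodal, Nanog and Wnt3 are high at early 96 h and low at control 96 h.

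Nodal, Lefty1 and Fst were members from the Nodal and TGF-beta list. Nodal, the ligand that patterns the streak, stood at 28.9, 29.7 and 45.5 CPM untreated, at 155.3, 162.7 and 172.5 CPM at early 48 h and at 152.9, 131.8 and 76.5 CPM at control 72 h. In the early arm it then read 198.7, 202.2 and 196.8 CPM at 72 h and 189.6, 184.7 and 187.1 CPM at 96 h (-0.14 ± 0.18, adjusted p = 0.583). Control 96 h read 11.4, 7.98 and 6.41 CPM, under every untreated library, and the log2 fold change of early over control was 4.39 ± 0.23 (adjusted p = 2.34e-11).

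Lefty1, a secreted Nodal inhibitor, was among the 5 members that fell in the early arm between 72 h and 96 h, from 242.3, 256.5 and 299.5 CPM to 155.8, 112.2 and 157.3 CPM (-0.96 ± 0.19, adjusted p = 9.88e-04). It was nevertheless higher than the 27.7, 19.5 and 32.0 CPM of control 96 h (2.41 ± 0.22, adjusted p = 3.11e-08). Fst, the gene of the activin inhibitor follistatin, rose from a mean of 113.4 to 337.7 CPM in the early arm (1.53 ± 0.20, adjusted p = 1.43e-05), while control 96 h read 386.6, 349.6 and 165.9 CPM and was not told apart from early 96 h (0.15 ± 0.19, adjusted p = 0.525). Tgfbr3, the co-receptor betaglycan outside the lists, stood at 25.0% of its early 48 h mean at early 72 h, and rose by 2.11 ± 0.18 from there to 96 h (adjusted p = 2.13e-07).

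Of 19 caudal and tailbud factors 8 were members: Cdx1, Cdx2, Nkx1-2, T, Fgf8, Sp5, Sp8 and Evx1. All 8 were higher at early 96 h than at early 72 h, and 6 were lower at early 96 h than at control 96 h, the exceptions being T and Fgf8. Of the 11 other genes of the list, 5 were higher in the first test and 9 were lower in the second.

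Cdx2, a homeobox factor of the posterior embryo, had the largest negative difference at 96 h. It stood at 0.194, 0.0941 and 0.125 CPM untreated, at 2.83, 2.36 and 3.24 CPM at early 48 h and at 17.0, 20.1 and 39.2 CPM at control 72 h. In the early arm it read 0.549, 0.937 and 0.419 CPM at 72 h and 4.39, 3.37 and 3.28 CPM at 96 h (2.40 ± 0.53, adjusted p = 0.00183). Control 96 h read 254.4, 242.1 and 377.9 CPM (-6.32 ± 0.27, adjusted p = 1.58e-12).

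Cdx1 followed the same course at 96 h, with 0.848, 0.937 and 0.778 CPM at early 72 h, 8.90, 5.86 and 6.20 CPM at early 96 h and 508.2, 511.2 and 334.4 CPM at control 96 h. Its log2 fold changes were 2.95 ± 0.79 (adjusted p = 0.00870) and -6.03 ± 0.43 (adjusted p = 4.81e-09). Both Cdx genes were low at early 72 h, at 15.3% of the early 48 h mean for Cdx1 and 22.6% for Cdx2. Nkx1-2, a homeobox factor of the caudal epiblast, was not: it averaged 42.3 CPM at early 48 h, 55.3 CPM at early 72 h and 158.6 CPM at early 96 h (1.47 ± 0.17, adjusted p = 3.09e-06). Control 96 h reached 853.3, 798.2 and 985.7 CPM of Nkx1-2 (-2.48 ± 0.16, adjusted p = 3.97e-10). The annotated span of Fgfr2 overlaps Nkx1-2 on the same strand, with a mean of 9.90 CPM over the ends of the pulses.

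The Hox genes Hoxb1 and Hoxb2, of the 3′ part of their cluster, were members. At early 96 h against early 72 h the log2 fold changes were 1.43 ± 0.67 for Hoxb1 and 2.51 ± 1.01 for Hoxb2, neither called (adjusted p = 0.108 and 0.0603). Hoxb1 was called as higher with only the 2 groups in the fit (adjusted p = 1.51e-04) and without the 3 control libraries numbered 3 (1.05e-05). It was also called with no filter on low counts (adjusted p = 1.28e-52). It was not called when a single library was left out. Hoxb1 and Hoxb2 were both lower at early 96 h than at control 96 h, as were 21 of the 23 tested Hox genes that were not members. Hoxb1 stood at 0.0486, 0.0941 and 0.250 CPM untreated, at 15.6, 15.0 and 14.8 CPM at early 48 h and at 19.6, 30.5 and 169.6 CPM at control 72 h, where replicate 3 was far above the other 2. Early 72 h read 5.89, 5.14 and 7.31 CPM, early 96 h 25.3, 10.6 and 15.0 CPM and control 96 h 409.3, 412.2 and 289.6 CPM (-4.48 ± 0.55, adjusted p = 1.40e-06). The difference was -4.30 ± 0.64 for Hoxb2 (adjusted p = 1.34e-05).

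Hoxb2 had 2 counts in the untreated group and 141 at early 48 h, a ratio of 70.6 after scaling to the library totals, with a 95% interval of 19.2 to 588.6 that covers counting error only. Its first test gave 2.87 with adjusted p = 0.0486 without early 96 h replicate 2. Hoxb2 overlaps the antisense gene Hoxb3os, with a mean of 5.56 CPM over the ends of the pulses. Meis2, which codes for a partner of Hox proteins, was also highest in replicate 3 at control 72 h, with 5.0, 5.63 and 47.9 CPM. It was lower at early 96 h (27.1, 12.5 and 18.6 CPM) than at control 96 h (161.4, 166.2 and 73.5 CPM), with a log2 fold change of -2.81 ± 0.53 (adjusted p = 1.67e-04).

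Nanog and Tfcp2l1, factors of naive pluripotency, were members. Nanog stood at 37.4, 38.1 and 48.4 CPM untreated, at 199.0, 204.3 and 192.8 CPM at early 48 h and at 352.7, 318.8 and 250.9 CPM at control 72 h. It stayed high in the early arm, with 207.8, 211.1 and 211.4 CPM at 72 h and 372.0, 378.9 and 403.9 CPM at 96 h (0.83 ± 0.11, adjusted p = 1.73e-05). The control 96 h libraries read 29.0, 26.6 and 20.1 CPM, under the untreated ones, so that early exceeded control by 3.91 ± 0.13 (adjusted p = 5.84e-14). Tfcp2l1 was the other member and neither test called it: it averaged 18.6 CPM at early 72 h, 19.8 CPM at early 96 h and 19.1 CPM at control 96 h, against 7.22 CPM untreated. Of the 19 other tested genes of the list, 2 were higher and 11 lower in the first test, and 11 were higher and 4 lower in the second. No member was found among the lists of formative pluripotency (16 tested), BMP (22), Notch (17), presomitic (12), epithelial adhesion (14), mesenchymal transition (13) or neural progenitor genes (16).

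**Figure D5:**
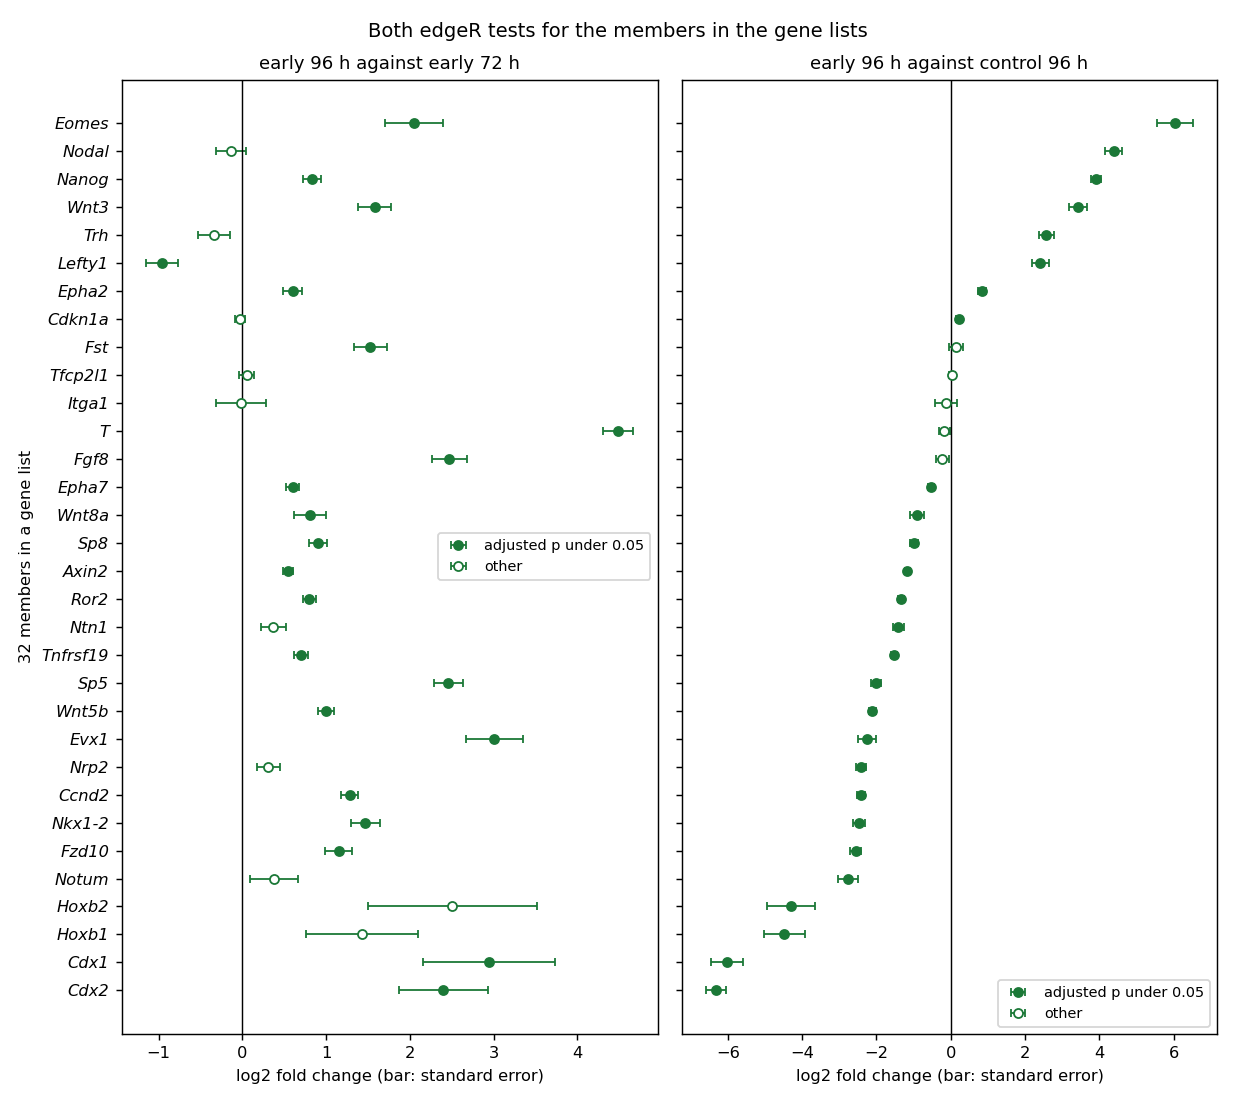
Points give the log2 fold change of 32 members that stand in the gene lists, with the standard error as bars, for early 96 h against early 72 h (left) and against control 96 h (right), and filled points have an adjusted p under 0.05. T has the largest value on the left at 4.49, while on the right values run from -6.32 for Cdx2 to 6.04 for Eomes.

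Of 42 tested guidance and adhesion receptors and ligands, Ntn1, Nrp2, Epha2 and Epha7 were members. Among the 38 tested non-members of that list, 14 were higher and 2 lower in the first test. In the second 5 were higher and 28 lower. Ntn1 stood at 25.1, 26.2 and 26.1 CPM at early 72 h and read 37.3, 35.1 and 30.7 CPM at early 96 h (0.37 ± 0.15, adjusted p = 0.0636) and 101.1, 100.4 and 68.6 CPM at control 96 h (-1.41 ± 0.14, adjusted p = 1.23e-07). The first of these was called with only the 2 groups in the fit (adjusted p = 4.24e-04) and without the 3 control libraries numbered 3 (3.65e-04). It was also called with no filter on low counts (adjusted p = 2.23e-05). It was not called when a single library was left out. Nrp2, a co-receptor for semaphorins, was lower in the second test (log2 fold change -2.41 ± 0.13, adjusted p = 3.79e-11). The ephrin receptors moved apart there, with Epha2 0.84 ± 0.11 higher and Epha7 at -0.54 ± 0.08 (adjusted p = 5.04e-06 and 1.25e-05).

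Trh stood among the definitive endoderm genes of the lists and was the most abundant member per length in the early arm at 48 h. In that arm it then read 933.9, 925.6 and 931.1 CPM at 72 h and 757.4, 682.0 and 840.8 CPM at 96 h (-0.34 ± 0.19, adjusted p = 0.169). That fall was called with only the 2 groups in the fit (adjusted p = 1.94e-04). It was also called without the 3 control libraries numbered 3 (1.27e-05) and with no filter on low counts (1.90e-09), but not under the other alternatives. Control 96 h read 158.5, 146.2 and 74.7 CPM, which early 96 h exceeded by 2.57 ± 0.20 (adjusted p = 3.84e-09). Cdkn1a, the gene of the cell-cycle inhibitor p21, averaged 57.5 CPM untreated, 260.1 CPM at early 48 h and 480.9 CPM at control 72 h, and between 201.8 and 235.3 CPM in the 3 later groups. Itga1, the integrin alpha 1 gene, overlaps Pelo, a gene on the same strand with a mean of 11.8 CPM over the ends of the pulses. It was called in neither, but without control 96 h replicate 3, which read 6.02 CPM beside 22.6 and 24.4 CPM, it was lower at early 96 h (log2 fold change -0.51, adjusted p = 0.00334).

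The other 64 members stand in none of the 31 gene lists. Grsf1, the gene of an RNA-binding protein of mitochondria, stood at 80.3, 81.1 and 76.9 CPM untreated and at 1595, 1627 and 1612 CPM at control 96 h, while the early arm had 124.5, 119.9 and 124.0 CPM at 72 h and 173.1, 166.4 and 169.7 CPM at 96 h. The difference at 96 h was -3.26 ± 0.14 (adjusted p = 1.12e-12). Its smaller rise in the first test (0.42 ± 0.13, adjusted p = 0.0174) had an adjusted p of 0.0556 without early 72 h replicate 2. Ttc28, with means of 15.1 and 99.6 CPM at early and control 96 h, differed by -2.73 ± 0.12 (adjusted p = 2.69e-12).

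Members outside the lists that rose most between early 72 h and early 96 h were Trim67, Alox15, Pde10a and Rtl8c. Trim67 went from 10.2, 10.2 and 10.5 CPM to 89.2, 83.1 and 63.1 CPM (2.89 ± 0.38, adjusted p = 1.42e-05), and control 96 h read 57.5, 46.5 and 9.91 CPM. Alox15, a lipoxygenase gene, went from 18.1, 17.8 and 20.2 CPM to 135.5, 112.1 and 94.5 CPM (2.57 ± 0.25, adjusted p = 6.39e-07). Its second test (-0.55 ± 0.22, adjusted p = 0.0375) was lost without control 96 h replicate 1 (-0.31, adjusted p = 0.247) or replicate 2 (-0.40, adjusted p = 0.162), or without early 96 h replicate 2 (-0.53, adjusted p = 0.0892) or replicate 3 (-0.43, adjusted p = 0.154). Pde10a, a cyclic nucleotide phosphodiesterase gene, rose from a mean of 3.00 to 14.2 CPM (2.2 ± 0.19, adjusted p = 2.27e-07), and its mean at control 96 h was 14.3 CPM (-0.01 ± 0.17, adjusted p = 0.970). Rtl8c and Rtl8b, retrotransposon-derived genes on chromosome X whose similar copies may share reads, rose by 2.12 ± 0.11 and 1.35 ± 0.10 (adjusted p = 1.06e-09 and 2.81e-08).

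Beside Lefty1, the members that fell between early 72 h and early 96 h were Col6a5, Tenm1, Zfp36l3 and Mllt6. Col6a5, a chain of collagen VI, went from 7.48, 7.50 and 7.43 CPM to 4.62, 2.79 and 4.17 CPM (-1.01 ± 0.31, adjusted p = 0.0169), a call that was lost without early 96 h replicate 2 (-0.81, adjusted p = 0.0894). Tenm1, a teneurin of the cell surface, averaged 2.48 and 1.45 CPM (-0.83 ± 0.20, adjusted p = 0.00324). Zfp36l3 and Mllt6 differed by -0.56 ± 0.10 and -0.35 ± 0.08 (adjusted p = 2.65e-04 and 0.00324).

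Members outside the lists that were higher at early 96 h than at control 96 h included Ism2, Nrcam, Pllp and Nefl. Nrcam, a neural adhesion molecule, read 85.0, 87.6 and 74.3 CPM against 13.2, 11.0 and 9.39 CPM (2.84 ± 0.14, adjusted p = 1.46e-11). Ism2, an isthmin gene, averaged 23.3 against 3.10 CPM (2.90 ± 0.19, adjusted p = 3.97e-10). Pllp, the gene of plasmolipin, averaged 10.7 against 1.87 CPM (2.44 ± 0.20, adjusted p = 8.41e-09). Nefl, the light neurofilament chain, averaged 54.5 against 13.3 CPM (2.03 ± 0.13, adjusted p = 3.30e-10), with its highest level, 111.2 CPM, at early 48 h. Nefl overlaps Nefm, a neurofilament gene on the other strand with a mean of 10.9 CPM over the ends of the pulses.

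Beside Porcn, Tfcp2l1 and Itga1, the members called in neither test were Hs6st2, Ap3b2, Prkca, Rerg, Zyg11a and 4930461G14Rik. Hs6st2 had log2 fold changes of -0.09 ± 0.08 in the first test and -0.02 ± 0.08 in the second, and Ap3b2 of 0.10 ± 0.19 and -0.06 ± 0.18. Without control 96 h replicate 3 Rerg was lower at early 96 h (-0.43, adjusted p = 9.90e-04), and without control 96 h replicate 2 or early 96 h replicate 3 Zyg11a was higher (0.81 and 0.89, adjusted p = 0.0328 and 0.00580). Hs6st2, a heparan sulfate sulfotransferase gene, averaged 10.6 CPM untreated, 49.6 CPM at early 48 h, 73.0 CPM at control 72 h, and 38.6, 37.4 and 37.6 CPM at early 72 h, early 96 h and control 96 h.

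The members lie on 20 chromosomes. Chromosome X holds 9 of them (9.09%) and 3.55% of the tested genes, and chromosome 11 holds 11 (11.1%) and 7.73%. There were 8 pairs within 100000 bases of each other in mm10. T (chr17:8434423-8442496) and Pde10a (chr17:8525372-8986648) are 82875 bases apart, and Axin2 (chr11:108920349-108950783), Cep112 (chr11:108425192-108860615) and Prkca (chr11:107933387-108343928) follow each other. Hoxb1 and Hoxb2 are 11739 bases apart, and the paternally expressed genes Sgce (chr6:4674350-4747207) and Peg10 (chr6:4747306-4760517) are 98 bases apart on opposite strands. Peg10 and Sgce were both lower at early 96 h than at control 96 h, with log2 fold changes of -1.59 ± 0.09 and -0.79 ± 0.10 (adjusted p = 1.03e-10 and 1.51e-06). The remaining pairs are Cpeb1 with Ap3b2, Ebp with Porcn, and Rtl8c with Rtl8b.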

How the data were processed

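Poly(A) RNA was sequenced from 18 gastruloid libraries. The authors deposited a table of read counts per gene and a table of FPKM per gene (fragments scaled to gene length and library size). Per the submitters' processing notes, cutadapt 4.0, STAR 2.7.8a and Cufflinks 2.2.1 were used with the mm10 genome. How reads were assigned to genes, and whether by strand, is not given in the sources used here. Library totals from 14841728 to 24536538 counts limit the precision of low genes, and intervals and floors cover counting error only.

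CPM was computed from the counts and the column totals. The 2 tests used edgeR 4.0.16 (R 4.3.3): filterByExpr, TMM, 1 quasi-likelihood fit over all 18 libraries, and Benjamini-Hochberg adjustment over 16041 genes at 0.05. Values after ± are the standard errors of log2 fold changes. The fit was first tested on simulated data. Alternatives used DESeq2 1.42.0, limma 3.58.1 on log2(FPKM+1) and log2(FPKM+0.1), a test against a 2-fold change, other filters, a replicate block and left-out libraries.

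The members and gene lists were chosen with earlier results of these data known. Members were named if they stood in a list, were among the 10 largest rises or falls of a test, the 10 largest smaller-of-2 differences, the 5 extremes of either end of the contrast between the pulses, the 10 highest in FPKM or next to the threshold. The values of 3 members are not reported here by name and they are left out of the plots that label every gene. Members named for their position, for a call in neither test, as falling in the first test or past a 2-fold change, and Vangl1, were chosen after their values were seen.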

Additional observations from a re-analysis of the deposited data

How the results depend on the processing

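The number of members depended most on the rule. A threshold of 1 gave 227 genes, a threshold of 2 gave 64 and a pseudocount of 0.1 gave 219. The 219 include all 99 members. By arithmetic a smaller pseudocount can only widen the log2 difference of a gene with separated libraries, and the part of other causes was not tested. TMM-adjusted library sizes gave 97 genes (96 of them members) and values in log2(FPKM+1) gave 76 genes (63 members), and leaving out 1 library gave from 94 to 104. For early 96 h against early 72 h the count of 5 lower members was 8 with no filter on low counts. It was 9 with only the 2 groups in the fit and 9 without the 3 control libraries numbered 3. The cause of these higher counts was not tested. With limma on either log2(FPKM+1) or log2(FPKM+0.1) the count was 3. There Tenm1 did not pass the filter of at least 1 FPKM in 3 libraries, and Col6a5 lost its call. Testing against a 2-fold change in edgeR left 11 higher and 0 lower in that comparison (0 lower also at an unadjusted p under 0.05, while DESeq2 called 5 lower against no change), and 15 higher and 26 lower against control 96 h. Leaving out 1 library of the compared groups gave 55 to 57 higher and 4 to 5 lower members in the first comparison and 31 to 33 higher and 46 to 51 lower in the second. No member's called fold change reversed its sign under the alternatives run.

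Apart from the 2-fold test, 6 members lost their call under some alternative in the first comparison and 11 in the second. When a single library was left out, first-comparison calls were lost at Sidt1 and Slc29a1 (each of the 6 libraries, adjusted p up to 0.0904 and 0.140) and at Ism2 (4 libraries, up to 0.114), beside Grsf1 and Col6a5. Calls against control 96 h were lost at Cep112 (each of the 6 libraries, up to 0.141), Slc18b1 (3 libraries, up to 0.179), Col6a5 (3 libraries, up to 0.0960), Alox15 (4 libraries), Fam53b (-0.23, adjusted p = 0.0730, without control replicate 1), Kctd6 (0.22, 0.0722, without control replicate 2), Pdgfa (-0.26, 0.0608, without control replicate 3) and Rreb1 (0.24, 0.0731, without early replicate 2). Trim67 lost its call there with DESeq2 (adjusted p = 0.0561), with only the 2 groups in the fit and with limma on log2(FPKM+0.1). Alox15 lost its call under the same settings and with limma on log2(FPKM+1).

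The fit with a replicate block called 60 members higher and 5 lower in the first comparison and 33 and 49 in the second, against 59 and 5 and 32 and 50 without it. The replicate numbers were not taken to pair the libraries: deviations of same-numbered libraries correlated at 0.011, 0.052 and 0.027 in the first comparison and at 0.044, 0.029 and 0.03 in the second, although each library correlated best with its own number, which is a hint from the data and not from the design. Depth limited the members with few counts, such as Hoxb2 and Cdx2 before the pulses.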
